A study of Mus musculus with 12 samples.

Results

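The guanylate-binding proteins (GBPs) and immunity-related GTPases (IRGs) examined here were 10 genes chosen by symbol, *Gbp2*, *Gbp3*, *Gbp4*, *Gbp5*, *Gbp6*, *Gbp7*, *Irgm1*, *Irgm2*, *Igtp* and *Iigp1*, out of 25860 genes listed in the RNA-seq counts. All 10 were listed, and all 10 were among the 14459 genes tested, those whose normalized counts averaged 10 or more. The cells were CD8+ T cell progenitors sorted from the pancreatic lymph nodes of nonobese diabetic (NOD) mice that carry the transgenic NY8.3 T cell receptor. They were gated on Ly108 and the lack of CXCR6 according to the series text, while the paper's methods name CD39 in place of CXCR6. RNA-seq covered 3 libraries of WT cells and 3 of UTX TCD cells, and ATAC-seq, which marks open chromatin by transposase cutting, covered 3 and 3 more. UTX TCD mice carry floxed *Kdm6a* alleles (UTX fl/fl), bred onto NOD from C57BL/6, which Cre under the Lck promoter deletes in cells of the T lineage. The paper names littermates without Cre as its WT controls. The paper's methods say that all mice were female, and no age is given for those of these libraries. Normalized counts summed to 145078611, 142663768 and 147622453 in WT libraries 1, 2 and 3 and to 138365399, 140503500 and 138050092 in UTX TCD libraries 1, 2 and 3. Counted reads recovered from the values ranged from 61512402 in UTX TCD library 1 to 193568919 in WT library 3 over the 5 libraries in which they were recovered, all but WT library 1. The question was where these interferon-γ targets stood in cells whose interferon-γ receptor mRNA was lower.

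GBPs and IRGs are dynamin-like GTPases that mouse cells make in response to interferon. Interferon-γ binds a receptor of IFNGR1 and IFNGR2 chains, its kinases JAK1 and JAK2 pass the message on, and induced factors such as IRF1 act on the promoters of the family, while type I interferons reach part of the same promoters with the help of STAT2 and IRF9. The proteins gather on the vacuoles of intracellular microbes, and the IRGM proteins hold the effector IRGs inactive on the cell's own membranes. In T cells *Irgm1* is known for sustaining the survival of cells that expand under interferon-γ.

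The targeted gene, *Kdm6a*, had normalized counts of 28365, 28949 and 29172 in WT libraries 1 to 3 and of 24158, 24792 and 24579 in UTX TCD libraries 1 to 3. No UTX TCD library reached the lowest WT value. The log2 fold change, given throughout as UTX TCD minus WT on the log2(normalized count + 1) scale, was -0.23 (standard error 0.037), with an adjusted p of 0.00114 by limma and 3 of 3 UTX TCD libraries lower. A gene was called when its adjusted p was under 0.05 and its absolute log2 fold change over 0.5, so *Kdm6a* passed on the adjusted p alone. A count over the whole gene cannot show a deleted exon. For any gene taken singly, an exact permutation of 3 libraries against 3 cannot go below p = 0.10. In bulk libraries, fewer cells with a transcript and less of it in each cell cannot be told apart.

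Among the 6 GBPs of the family, *Gbp6*, whose protein has been found on phagosomes of mycobacteria, moved most. Its normalized counts were 9263, 9433 and 10572 in WT libraries 1 to 3 and 16796, 17771 and 15852 in UTX TCD libraries 1 to 3. The lowest UTX TCD library was far above the highest WT library. On the log2 scale the difference was 0.79, with a standard error (SE) of 0.063, a 95% interval of 0.64 to 0.93 and an adjusted p of 2.3e-05. *Gbp6* was thus called higher, by a fold of 1.72 with 3 of 3 UTX TCD libraries above WT. Of the tested genes, 91.6% had a lower log2 fold change. *Gbp4*, which binds IRF7 and limits its activity, counted 39779, 39327 and 40057 in WT and 51279, 50553 and 45892 in UTX TCD libraries. Its WT libraries lay close together, and UTX TCD library 3 stood between them and the other UTX TCD libraries. *Gbp4* differed by 0.31 on the log2 scale (SE 0.05), with an adjusted p of 0.00122 and 3 of 3 UTX TCD libraries above WT, so it passed on the adjusted p and not on the fold limit.

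The 4 other GBPs of the family lie together on chromosome 3. *Gbp7*, linked to the assembly of the phagocyte NADPH oxidase, counted 34860, 34285 and 36055 in WT and 44891, 46379 and 39869 in UTX TCD libraries. As with *Gbp4*, the groups did not overlap and UTX TCD library 3 was the lowest of its group. *Gbp7* was higher in 3 of 3 UTX TCD libraries, by 0.32 on the log2 scale (SE 0.059), and its adjusted p was 0.00269. *Gbp5*, which promotes assembly of the NLRP3 inflammasome, counted 5767, 6328 and 5505 in WT and 7063, 6957 and 6823 in UTX TCD libraries, again without overlap. The difference was smaller, at 0.25 (SE 0.057), with 3 of 3 UTX TCD libraries higher and an adjusted p of 0.00832. *Gbp2*, a lipid-anchored GBP that coats the vacuole of *Toxoplasma*, counted 21049, 21933 and 20490 in WT and 22069, 21899 and 19448 in UTX TCD libraries. UTX TCD libraries held both the highest and the lowest of the 6 values, and the group means were nearly equal, at 21157 (SD 728) and 21139 (SD 1470). The 95% interval around a log2 fold change of -0.00 ran from -0.13 to 0.12 (adjusted p 0.971). *Gbp3* counted 3614, 3891 and 3741 in WT and 3581, 3681 and 3559 in UTX TCD libraries. The ranges overlapped, and the log2 fold change was -0.05 (95% interval -0.17 to 0.06, adjusted p 0.432). The intervals of *Gbp2* and *Gbp3* leave out a change of the size seen in *Gbp4* or *Gbp7*, although the sign of both small values turned positive, to 0.06 and 0.01, when all libraries were scaled to 1 sum. Without WT library 2 or UTX TCD library 3, *Gbp2* stood at 0.02 and 0.06.

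Of the IRGs, the regulatory proteins come before the effector. *Irgm1* counted 27577, 25109 and 28254 in WT and 41123, 41142 and 34947 in UTX TCD libraries. The groups were well apart, with UTX TCD library 3 nearest to WT. *Irgm1* was called higher at 0.53 (95% interval 0.37 to 0.70, SE 0.072), with an adjusted p of 4.7e-04 and 3 of 3 UTX TCD libraries above WT. The value sits at the fold limit: it was 0.48 without WT library 2 and 0.49 without UTX TCD library 1 or 2, and the call ended in each case, as it did under a fold limit of 1.5 (its fold was 1.45), while the adjusted p over 15 alternatives ran from 7.6e-08 to 0.0027. *Irgm2*, which keeps the caspase-11 inflammasome in check, counted 14261, 13112 and 13551 in WT and 21014, 19708 and 16287 in UTX TCD libraries. No value of either group fell in the range of the other. At 0.47 (SE 0.085), with an adjusted p of 0.00232 and 3 of 3 libraries higher, *Irgm2* missed the fold limit narrowly. It passed at 0.50 without WT library 1, at 0.58 without UTX TCD library 3 and at 0.53 with libraries scaled to 1 sum, and also with edgeR (0.50) and DESeq2 (0.51) on the 5 libraries with recovered reads. *Igtp*, the IRGM protein of the endoplasmic reticulum, counted 26283, 24243 and 27345 in WT and 34938, 36044 and 30469 in UTX TCD libraries. Here too the groups were separate, with 3 of 3 UTX TCD libraries higher by a mean of 0.38 in log2 (SE 0.07) and an adjusted p of 0.00254.

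*Iigp1*, the effector that coats and breaks pathogen vacuoles, counted 2126, 1510 and 2062 in WT and 1829, 1718 and 2999 in UTX TCD libraries. UTX TCD library 3 alone stood above the WT range, and the other UTX TCD libraries lay inside it. The log2 fold change of 0.17 (95% interval -0.30 to 0.64, adjusted p 0.551) turned to -0.08 without UTX TCD library 3. The wide interval leaves room for a change as large as that of *Irgm1*.

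Over the family, limma called 2 of 10 genes higher, *Gbp6* and *Irgm1*, where 10.5% of all tested genes were, and *Irgm2* joined them when libraries were scaled to 1 sum. It called 0 of 10 lower, where 7.05% of all tested genes were, and 17.6% were called in either direction. With a library left out the count higher was 1 (without WT library 2, UTX TCD library 1 or UTX TCD library 2, when *Irgm1* stood at 0.48, 0.49 and 0.49), 2 (without WT library 3) or 3 (without WT library 1 or UTX TCD library 3, when *Irgm2* stood at 0.50 and 0.58). At an unadjusted p under 0.05 the count lower was also 0, as it was with edgeR and with DESeq2 on 5 libraries. On the adjusted p alone 7 of 10 were higher, all but *Gbp2*, *Gbp3* and *Iigp1*, against 20.2% of all tested genes. Those 7 are the genes whose groups did not overlap with UTX TCD higher, a pattern held by 25.8% of all tested genes. No family gene was lower on the adjusted p alone, against 20.5% of all tested genes, or had every UTX TCD library under WT, against 26.1%. Over 15 alternatives the highest adjusted p of the 7 was 0.048, for *Gbp5*, and the lowest of the other 3 was 0.26, for *Gbp3*. The median log2 fold change of the family was 0.31 (range -0.05 to 0.79), against a median of -0.00 over all tested genes, and 8 of the 10 values were positive, or 10 of 10 when libraries were scaled to 1 sum. The 4 IRGs had a median of 0.43 and the 6 GBPs of 0.28, a difference that was not tested. UTX TCD library 3 was the lowest of its group for 9 of 10 family genes, and for 37.3% of all tested genes. *Iigp1* was the exception, with its highest value there.

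**Figure D1:**
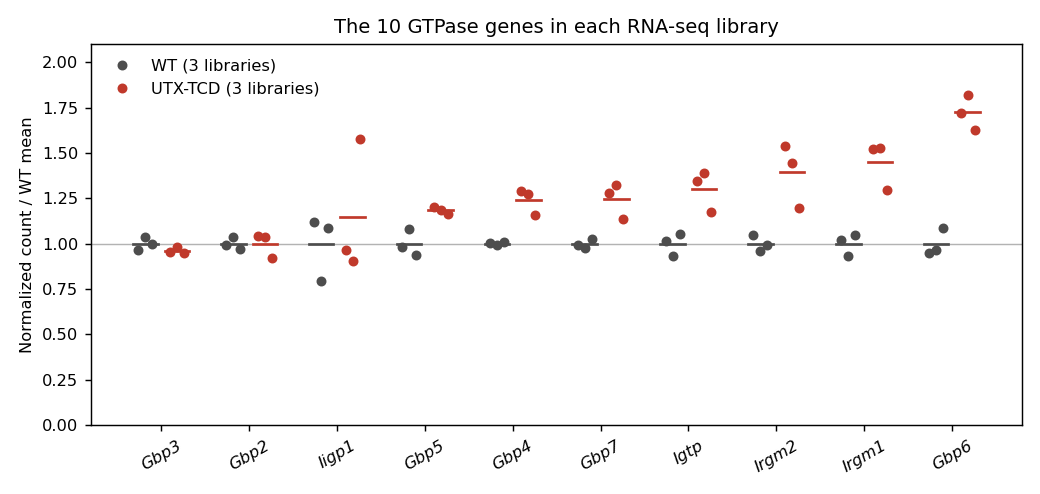
Normalized count of each of the 10 genes in each library, divided by the gene's WT mean (vertical axis, a ratio), with points for libraries and bars for group means of 3. The UTX TCD points of *Gbp6* lie highest over WT (fold 1.72), and those of *Gbp2* and *Gbp3* overlap the WT points, with log2 fold changes of -0.00 and -0.05 that turn to 0.06 and 0.01 when libraries are scaled to 1 sum.

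Levels of different genes were compared per kilobase of exon sequence, taken over every annotated exon of a gene. In WT cells the order of mean normalized counts per kilobase was *Igtp* at 12800, *Gbp2* at 8410, *Gbp7* at 6250, *Gbp4* at 5300, *Irgm1* at 4640, *Irgm2* at 3700, *Gbp6* at 1640, *Gbp3* at 1150, *Gbp5* at 884 and *Iigp1* at 326. No neighbours in that order had overlapping WT ranges. Such ranges show the spread over libraries, not error in exon length or in the assignment of shared reads. In UTX TCD cells *Irgm1*, at 6720 per kilobase, stood in front of *Gbp4*, at 6570, but their ranges over libraries overlapped, as did those of *Gbp2* (8400) and *Gbp7* (7790). The other places in the order were the same, from *Igtp* at 16700 to *Iigp1* at 375. *Gbp6*, the gene with the largest relative change in the family, reached 2820 per kilobase in UTX TCD cells and stayed below the WT level of *Irgm2*.

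Family members resemble each other in sequence, and how the authors counted reads that fit more than 1 gene is not stated. Of the 50-base words in the exons of *Gbp6*, 70.7% also occur in other genes, most of them (65.0% of its words) in *Gm43302*, which the counts do not list. Its neighbour *Gbp10* shares 73.3% of its words with *Gbp6*. The sum of *Gbp6* and *Gbp10* does not depend on which of the pair a read went to. That sum was 10957, 11467 and 12657 in WT and 21637, 22855 and 21627 in UTX TCD libraries, a ratio of means of 1.88. The groups were again far apart. Among the other family members the share ran from 0.379% in *Irgm1* to 12.7% in *Gbp7*. *Igtp* shares 11.8% of its words with *Irgm2*, the neighbour it resembles most.

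The 5 other mouse GBP genes were all tested, and 2 were called higher, with a median log2 fold change of 0.52. *Gbp10*, beside *Gbp6* on chromosome 5, counted 1694, 2034 and 2085 in WT and 4841, 5083 and 5775 in UTX TCD libraries. It had the widest separation of any GBP here, at 1.43 (SE 0.094, 3 of 3 higher) and an adjusted p of 8.1e-06. *Gbp9* counted 47258, 43766 and 48646 in WT and 68777, 70652 and 59581 in UTX TCD libraries, and was called at 0.51 (SE 0.07, 3 of 3 higher), with an adjusted p of 5.0e-04. That call ended without WT library 2 (0.46), UTX TCD library 1 (0.48) or UTX TCD library 2 (0.46). *Gbp8* had a log2 fold change of 0.20, *Gbp11* of 0.52 at counts of 126 to 244, and *Gbp2b* of 0.62 at counts of 31.7 to 78.1. *Gbp11* was not called with all libraries (adjusted p 0.0775, ranges overlapping) and passed at 0.70 without WT library 3, at 0.66 without UTX TCD library 1 and at 0.58 with libraries scaled to 1 sum. By position, the 6 GBP genes of chromosome 5 (*Gbp4*, *Gbp6*, *Gbp8*, *Gbp9*, *Gbp10*, *Gbp11*) had a median of 0.51 with 3 called higher. The 5 of chromosome 3 (*Gbp2*, *Gbp2b*, *Gbp3*, *Gbp5*, *Gbp7*) had a median of 0.25, and limma called 0 of them, although 3 were higher at an unadjusted p under 0.05 and edgeR and DESeq2 called 0. The difference between the clusters was not tested.

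Of 21 other IRG and related giant GTPase genes, 14 were listed and 12 tested, with a median log2 fold change of 0.16. The gene called higher was *Gm12250*, which encodes Irgb10, an IRG that attacks bacterial membranes. It lies beside *Igtp* on chromosome 11 and counted 9475, 8856 and 9358 in WT and 13701, 13623 and 12526 in UTX TCD libraries. The groups did not overlap, at 0.52 (SE 0.051, 3 of 3 higher) and an adjusted p of 6.6e-05, and the call ended at 0.50 without WT library 2. The gene called lower was *Irgc1*, an IRG known from testis, with counts of 4919, 3962 and 5073 in WT and 1943, 1777 and 1516 in UTX TCD libraries. All UTX TCD values were far below WT, at -1.41 (SE 0.11, 3 of 3 lower) and an adjusted p of 2.4e-05. *Tgtp1* and *Tgtp2*, near-identical effector IRGs, gave -0.16 and -0.04, and their summed counts had a ratio of means of 0.943. The value of *Tgtp2* turned to 0.02 with libraries scaled to 1 sum and to 0.05 without UTX TCD library 3. *Ifi47*, another effector, gave 0.16 (adjusted p 0.0373, higher in 3 of 3) and *9930111J21Rik1* 0.36 (adjusted p 0.0114, higher in 3 of 3), both passing on the adjusted p alone. *Gvin1* was not called with all libraries (0.39, adjusted p 0.169, ranges overlapping) and passed at 0.65 without UTX TCD library 1. Other genes share 99.2% of the 50-base words of *Gvin1* and 83.2% of those of *9930111J21Rik1*, so their counts depend on how shared reads were assigned.

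Upstream of the family, the receptor went the other way. *Ifngr1*, the ligand-binding chain, counted 18521, 21610 and 19169 in WT and 9416, 9684 and 11133 in UTX TCD libraries. Every UTX TCD library lay far under every WT library, and *Ifngr1* was called lower at -0.97 (SE 0.076, adjusted p 2.1e-05, lower in 3 of 3), a fold of 0.51. *Ifngr2*, the signalling chain, counted 8573, 8018 and 8883 in WT and 5896, 6330 and 5490 in UTX TCD libraries. It was called lower at -0.53 (SE 0.063, adjusted p 2.3e-04, lower in 3 of 3), a call that ended without WT library 3 (-0.49), without UTX TCD library 3 (-0.47) and with libraries scaled to 1 sum (-0.46). The ligand, *Ifng*, was at low counts in both groups, 10.9, 20.7 and 32.8 in WT and 6.75, 10.4 and 31.7 in UTX TCD libraries. A level of 3 reads corresponds to normalized counts of 2.21 to 6.75, the last being UTX TCD library 1, where *Ifng* was at that level. The replicates spread more widely than the groups differed, and *Ifng* did not pass (log2 fold change -0.53, 95% interval -1.88 to 0.82), with room in the interval for a change either way. So *Ifngr1* and *Ifngr2* were called lower in the same cells in which *Gbp6* and *Irgm1* were called higher.

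Between receptor and targets, 8 of 9 listed kinase and factor genes were tested, with a median of 0.31, and *Stat2* was called higher. *Stat2* counted 17119, 16094 and 17406 in WT and 33934, 34072 and 27645 in UTX TCD libraries, at 0.91 (SE 0.079, adjusted p 3.5e-05, higher in 3 of 3). UTX TCD library 3 was its lowest UTX TCD library, as for 9 of the 10 family genes. *Irf9* (0.37, adjusted p 6.6e-04) and *Jak2* (0.24, adjusted p 0.00415) passed on the adjusted p alone, each higher in 3 of 3. *Irf1*, the factor that interferon-γ induces and that drives GBP promoters, counted 39473, 41049 and 41648 in WT and 38849, 39773 and 39924 in UTX TCD libraries. These ranges overlapped, and the log2 fold change of -0.04 (95% interval -0.13 to 0.05, adjusted p 0.427) turned to 0.02 with libraries scaled to 1 sum. *Jak1* gave 0.11, *Tyk2* -0.07 and *Irf8* 0.46, none of them called with all libraries, although *Irf8* passed at 0.63 without WT library 2 and at 0.58 without UTX TCD library 1. *Batf2* was at 0 in every library. Of 6 inhibitors of interferon signalling 3 were called higher, with a median of 0.40: *Usp18*, which blocks the type I receptor (1.89, adjusted p 1.5e-05), *Socs3* (0.76, adjusted p 7.3e-04) and *Socs1*, which blocks the JAK kinases of the interferon-γ receptor (0.66, adjusted p 1.5e-04), each higher in 3 of 3. *Usp18* counted 4520, 3652 and 3886 in WT and 17460, 15954 and 11632 in UTX TCD libraries. *Ptpn2*, a phosphatase of JAK and STAT proteins, stood at -0.30 and passed on the adjusted p alone (5.2e-04, lower in 3 of 3).

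Other interferon targets give the family a scale. Of 24 other interferon-γ targets 23 were listed and 18 tested, and 4 were called higher, with a median of 0.31 (range -0.08 to 1.80), which is also the family's median. The largest were *Cxcl10* (1.80, adjusted p 6.7e-04, higher in 3 of 3) and *Bst2* (1.05, adjusted p 1.8e-05, higher in 3 of 3). All 23 type I interferon targets of the list were tested and all 23 were called higher, where 10.5% of all tested genes were. They stayed called with each library left out in turn and under every other alternative. Their median was 1.81 (range 0.77 to 3.74). The list was chosen with earlier results of these data known, so its count and range describe these 23 genes alone. The lowest of those 23 values lay just under the 0.79 of *Gbp6*. The other 9 of the 10 family values were below the range of this list. *Mx1*, a dynamin-like GTPase outside the family, counted 2231, 1886 and 2316 in WT and 20089, 21094 and 15949 in UTX TCD libraries, at 3.15 (adjusted p 1.8e-07, higher in 3 of 3). With all libraries, the largest type I value was that of *Ifi44*, at 3.74 (adjusted p 1.7e-04, higher in 3 of 3). *Ifi44* counted 38.6, 45.4 and 28.2 in WT and 319, 362 and 1106 in UTX TCD libraries, with UTX TCD library 3 far above the others. UTX TCD library 3 was the lowest of its group for 21 of the 23 type I targets, and for 36.4% of all genes called higher. It was also the lowest for 9 of the 10 GTPases, and a common cause was not tested. The type I receptor genes had a median of -0.17, with *Ifnar1* at -0.30, which passed on the adjusted p alone (3.8e-04, lower in 3 of 3), and *Ifnar2* at -0.03, and limma called 0 of 2, although 1 was lower at an unadjusted p under 0.05 and edgeR and DESeq2 called 0. *Ifnar2* turned to 0.03 with libraries scaled to 1 sum and to 0.00 without WT library 3. Of 14 genes for vacuole targeting and inflammasomes, the machinery that GBPs and IRGs work with, 13 were tested and 2 called higher, with a median of 0.16. They were *Rnf213* (1.23, adjusted p 9.6e-06, higher in 3 of 3) and *Cybb* (1.72, adjusted p 0.0317, higher in 3 of 3) at counts of 3.05 to 40.5. The call of *Cybb* ended without WT library 3 (1.13), UTX TCD library 1 (1.5) or UTX TCD library 3 (1.69), and with edgeR (1.84) and DESeq2 (1.87) on 5 libraries.

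**Figure D2:**
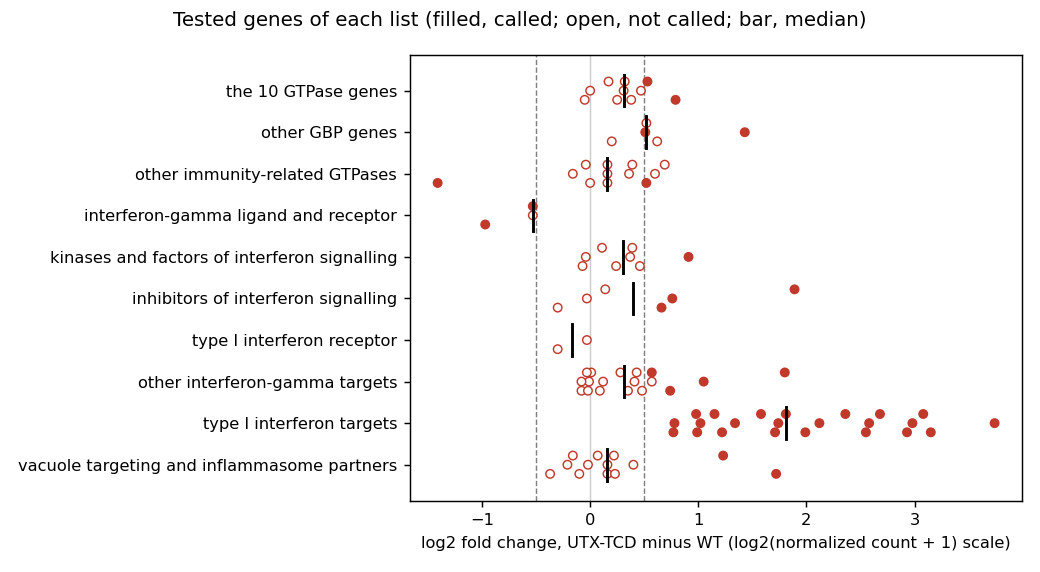
Log2 fold change (horizontal axis, UTX TCD minus WT) of every tested gene of each list, filled where called and open where not, with a bar at the list's median and dashed lines at the fold limit of 0.5. The 10 GTPase genes run from -0.05 to 0.79 with a median of 0.31, the type I targets from 0.77 to 3.74, and the signs of *Gbp2* and *Gbp3* turn with libraries scaled to 1 sum.

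Markers of the sorted cells and of others were read beside the family. The progenitor list was abundant, with *Cd8a* at a mean of 272155 in WT and 298501 in UTX TCD libraries and *Slamf6*, which encodes Ly108, at 28378 and 34357. Its 8 genes summed to 1183672, 1185084 and 1122510 in WT and 1183110, 1133377 and 1083323 in UTX TCD libraries, with *Cd8a* the most abundant, and limma called 0 of 8. At an unadjusted p under 0.05, 2 of them were higher and 2 lower, and edgeR and DESeq2 called 0. The list's median log2 fold change was -0.08, with 5 of the 8 values negative. *Cd8b1* (-0.37, adjusted p 0.00634) and *Cd3d* (-0.28, adjusted p 0.00485) passed as lower on the adjusted p alone. *Cd3e* (0.17, adjusted p 0.0414) passed as higher in the same way. In WT library 2 *Il7r* stood at 79127, against 37105 to 40509 in the other 5 libraries. The 3 CD4 T cell markers, all tested, summed to 450, 378 and 404 in WT and 382, 364 and 346 in UTX TCD libraries, with *Foxp3* the most abundant. *Cd4* was called lower at -0.74 (adjusted p 0.0384, lower in 3 of 3), and that call ended without WT library 1 (-0.75), 2 (-0.65) or 3 (-0.81) and without UTX TCD library 1 (-0.78) or 3 (-0.54), as it did with libraries scaled to 1 sum (-0.67), with no filter on low counts (-0.74) and with TMM (-0.77), edgeR (-0.75) or DESeq2 (-0.74) on 5 libraries. Of 5 B cell markers 4 were tested, and the list summed to 2951, 2437 and 2800 in WT and 1221, 1082 and 1000 in UTX TCD libraries. *Pax5* was at 0 in UTX TCD library 2. *Cd79b*, the most abundant of the list, was called lower at -1.98 (adjusted p 1.5e-05, lower in 3 of 3), and *Ms4a1* higher at 1.72 (adjusted p 0.0367, higher in 3 of 3), with counts of 5.94, 19.7 and 8.39 in WT and 20.2, 29.6 and 73.0 in UTX TCD libraries. The *Ms4a1* call ended without WT library 1 (1.38), WT library 3 (1.6), UTX TCD library 2 (1.84) or UTX TCD library 3 (1.21), and with TMM (1.36), edgeR (1.63) or DESeq2 (1.58) on 5 libraries.

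Of 9 myeloid and dendritic cell markers 5 were tested, and their counts summed to 991, 979 and 827 in WT and 1206, 951 and 1151 in UTX TCD libraries, with *Cd68* the most abundant. *Cd68* stood at 0.43 and passed on the adjusted p alone (0.0377, higher in 3 of 3). *Fcgr1* was at 0 in WT library 3 and *Siglech* in UTX TCD library 3. *Itgax*, at 0 in UTX TCD libraries 1 and 2 and 4.42 in library 3, was called lower (adjusted p 0.00103, log2 fold change -4.57, lower in 3 of 3), as was *Csf1r* (-1.85, adjusted p 0.00496, lower in 3 of 3), though not by DESeq2 on 5 libraries (-1.83). Of 4 NK cell markers 3 were tested, and the list summed to 18881, 19865 and 17828 in WT and 24305, 23549 and 31458 in UTX TCD libraries. Nearly all of that sum came from *Eomes* and *Klrk1*, which CD8+ T cells also express, and *Ncr1* was at 0 in WT libraries 2 and 3 and UTX TCD libraries 1 and 2. *Eomes*, the most abundant of the list, was called higher at 0.62 (adjusted p 0.00388, higher in 3 of 3), and at 0.46 without UTX TCD library 3 the call ended. In UTX TCD library 3, where *Iigp1* was highest, the B cell markers did not agree, with *Ms4a1* at its highest of the 6 libraries and *Cd79b*, the most abundant, at its lowest. The part of other cells in that *Iigp1* value was not tested. The 7 family genes that passed on the adjusted p had their lowest UTX TCD counts in that same library.

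Promoter sequence was available in the RefSeq table of GRCm38.p6 for 7 of the 10 family genes, in 8 windows of 250 bases before a gene start, and not for *Gbp4*, *Gbp6* and *Iigp1*. These are sequences of the C57BL/6J reference, not of NOD. Each window was searched on both strands for the interferon-stimulated response element in the form GAAANNGAAA (TTTCNNTTTC on the other strand). The response element was found in 7 of 8 windows, at least 1 for each of the 7 genes, and in 2.98% of 32851 promoter windows of the same length. Among tested genes with a window the share was 2.64% of 13435.

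The windows of 5 genes follow, chosen for what they share and where they differ, each written from 5′ to 3′ on the gene's strand with every response element in capitals. *Irgm1* (chr11:48871421-48871670, minus strand), called higher, had 2 overlapping response elements, the nearer ending 14 bases before the start. *Irgm2* (chr11:58214727-58214976, plus strand) and *Igtp* (chr11:58199306-58199555, plus strand), neighbours with like increases, had a response element in almost the same stretch, ending 54 and 24 bases before the start. *Gbp7* (chr3:142530086-142530335, plus strand), which passed on the adjusted p, had 1 response element. *Gbp2* (chr3:142620413-142620662, plus strand), whose level differed by less than the spread between replicates, had 1 response element ending 49 bases before the start. A match describes letters in the window and shows no binding, and the presence of a response element did not separate *Gbp2* from *Irgm1*.
Irgm1: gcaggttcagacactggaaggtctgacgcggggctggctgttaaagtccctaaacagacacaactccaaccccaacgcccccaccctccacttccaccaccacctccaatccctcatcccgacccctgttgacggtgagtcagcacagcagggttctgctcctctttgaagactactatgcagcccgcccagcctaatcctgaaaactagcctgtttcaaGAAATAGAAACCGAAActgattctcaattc
Irgm2: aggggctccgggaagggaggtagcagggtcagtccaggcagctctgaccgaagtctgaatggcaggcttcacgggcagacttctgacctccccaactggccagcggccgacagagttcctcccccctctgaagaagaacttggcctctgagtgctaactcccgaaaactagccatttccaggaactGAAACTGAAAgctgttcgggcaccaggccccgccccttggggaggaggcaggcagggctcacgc
Igtp: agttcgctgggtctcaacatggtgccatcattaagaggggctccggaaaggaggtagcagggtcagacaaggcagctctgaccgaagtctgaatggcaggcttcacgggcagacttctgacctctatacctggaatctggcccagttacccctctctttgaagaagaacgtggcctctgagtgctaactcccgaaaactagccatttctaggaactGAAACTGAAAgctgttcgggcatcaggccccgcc
Gbp7: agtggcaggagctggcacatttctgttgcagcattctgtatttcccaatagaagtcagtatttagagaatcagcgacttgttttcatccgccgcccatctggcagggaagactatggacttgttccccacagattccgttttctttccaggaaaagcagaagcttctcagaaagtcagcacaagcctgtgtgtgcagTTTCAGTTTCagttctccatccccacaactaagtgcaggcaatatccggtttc
Gbp2: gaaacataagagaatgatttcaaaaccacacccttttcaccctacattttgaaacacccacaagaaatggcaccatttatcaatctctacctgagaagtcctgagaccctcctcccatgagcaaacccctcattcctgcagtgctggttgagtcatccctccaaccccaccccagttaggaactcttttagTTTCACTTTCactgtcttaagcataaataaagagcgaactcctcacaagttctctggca

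For ATAC-seq the deposited list held 23932 peaks, each with the authors' FDR under 0.05 and a mean log2 concentration (log2 of normalized reads in the peak) for each group of 3 libraries, so no spread over libraries could be computed. By nearest promoter, 5 of those peaks belonged to 4 family genes, and 6 family genes had no listed peak. Of the 5 peaks 4 had the higher mean in UTX TCD cells, at a median difference of 0.57, and 68.8% of all listed peaks were higher, at a median of 0.49. All 5 lay over 1 kb from the start of the gene, as did 20359 of the 23932 listed peaks. The peak of *Gbp7* (chr3:142533083-142533483, intron 1 of 10, 2947 bases inside the start) went from 8.51 in WT to 9.08 in UTX TCD cells, a difference of 0.57. It held no response element. The peak of *Igtp* (chr11:58193372-58193772, intergenic, at -5984 from the start) had the lower mean in UTX TCD cells, 6.58 against 5.73, a difference of -0.84, while *Igtp* RNA was higher on the adjusted p. *Irgm2* had a pair of intergenic peaks at 20444 bases (chr11:58235221-58235621, 7.95 to 8.57) and 24432 bases (chr11:58239209-58239609, 8.24 to 8.75) from its start, with differences of 0.62 and 0.51. *Iigp1* had the widest difference of the 5, in intron 2 of 2 (chr18:60382370-60382770), from 4.94 to 6.40, or 1.46, at the lowest WT level. That peak held 1 response element, a motif found in 6.88% of 23908 listed peaks, and *Iigp1* RNA did not pass.

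**Figure D3:**
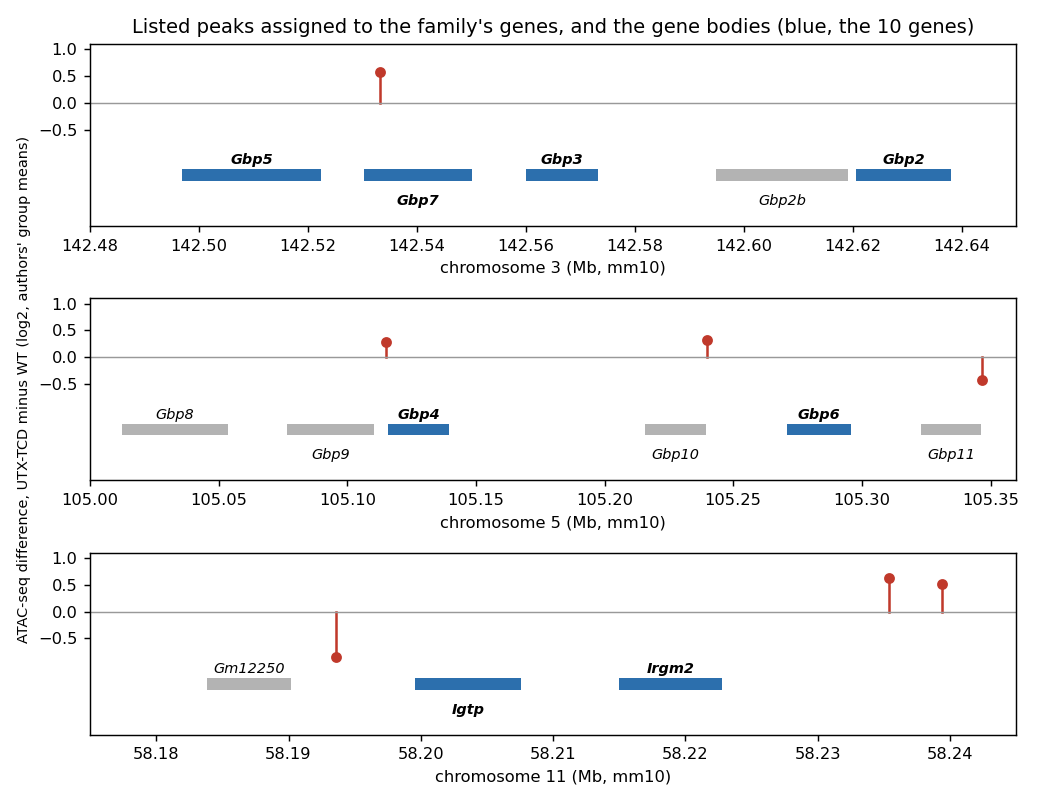
Listed ATAC-seq peaks assigned to GBP and IRG genes on chromosomes 3, 5 and 11, with position in megabases (mm10) on the horizontal axis and the difference of the authors' group means (log2, UTX TCD minus WT) on the vertical axis. Bars are gene bodies, blue for the 10 genes. The peaks of *Gbp7* (0.57) and *Irgm2* (0.62 and 0.51) point up and that of *Igtp* (-0.84) points down.

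Around the family, a peak within 10 kb of *Gbp4* was assigned to *Gbp9* (chr5:105114719-105115119) and had mean concentrations of 10.54 in WT and 10.82 in UTX TCD cells, a difference of 0.28. *Gbp10* had a listed peak in its promoter (chr5:105239601-105240001), at 10.14 in WT and 10.46 in UTX TCD cells, and it held 1 response element. The peak of *Gbp11* differed by -0.43. Both listed peaks of *Irgc1*, the IRG called lower in RNA, had lower means in UTX TCD cells, with differences of -0.87 and -0.47. Upstream, all 5 peaks of *Ifngr1* were lower (median difference -0.73) and all 3 of *Irf1* were lower (median -0.94), while all 4 of *Usp18* were higher (median 0.67).

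The genes most like the family in profile were found by the Euclidean distance between standardized log2 values over 6 libraries and the mean profile of the 10 GTPases. They were *Ash1l* (distance 0.788), *Srsf4* (0.792), *Rev3l* (0.793), *Ajuba* (0.793) and *Zc3hav1* (0.793). Standardized values leave out a gene's level and the size of its change. *Ajuba* averaged 14.2 in WT and 55.5 in UTX TCD libraries, a log2 fold change of 1.82, where the others had 0.20 to 0.28. *Ash1l* counted 37895, 38522 and 38118 in WT and 46481, 47118 and 43158 in UTX TCD libraries. Of the family, *Gbp4* lay closest to the mean profile (0.803), and *Gbp2* (2.29), *Iigp1* (2.72) and *Gbp3* (3.2) lay farthest from it.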

How the data were processed

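RNA-seq and ATAC-seq were measured in 3 WT and 3 UTX TCD libraries each, grouped by their labels. The submitters' processing notes name HISAT2 2.2.1 and featureCounts on mm10. The deposited RNA-seq signal was the authors' read count of each gene divided by a DESeq2 size factor, and 100% of the deposited values were whole multiples of the step of their library, within 0.1 of a step. Whole reads were recovered from the deposited values of 5 libraries, and none are claimed for WT library 1. The deposited ATAC-seq signal was the authors' mean log2 concentration of each group from DiffBind, and the distance of each peak in bases was as the authors annotated it with HOMER. The authors' own fold and p columns hold their comparison and were not used, except that every listed peak had their FDR under 0.05. Gene annotation, strand setting and transposase shift are not stated.

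Of the genes listed, the 14459 whose normalized counts averaged 10 or more entered a fit by limma 3.58.1 (R 4.3.3, eBayes with a trend). It compared the genotypes, with no other term, on the log2 of the count plus 1, and p-values were adjusted over all of those genes (Benjamini-Hochberg). Tables and motifs were made with Python 3.11.15, numpy 2.4.6, pandas 2.3.3 and pysam 0.24.0, and plots with matplotlib 3.10.9. The procedure was tested on simulated data. Values of a few listed genes, and matches of another motif, are left out of the text. Exon lengths came from GENCODE vM21 and sequences and gene starts from RefSeq GRCm38.p6. Of 23817 peaks, 98.4% lay at the authors' distance from those starts within 5 bases, so the builds match. Intervals and the level of 3 reads cover counting or replicate error as named, and reads carry no molecular identifiers.

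The members and lists were chosen with earlier results of these data known. Genes named were the 10 members, *Kdm6a*, tested genes of the GBP, IRG, ligand, receptor, kinase, factor and inhibitor lists, the 2 largest called changes in each direction of other lists, and the 5 genes with the most similar profile. Marker genes outside that rule, the type I receptor genes and *Batf2* were named after their values were seen. Alternatives covered the pseudocount (0.5, 5), the filter (none, 100), the scaling, the replicate block, the fold limit, peak limits and each library left out. TMM, edgeR 4.0.16 and DESeq2 1.42.0 on 5 libraries were chosen after seeing the data.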

Additional observations from a re-analysis of the deposited data

How the results depend on the processing

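Over the alternatives other than the changed fold limits, 891 of 951 values for 64 genes kept their direction and their side of the limits. Of the rest, 34 lost a call, 11 gained a call and 15 changed sign, in 8 genes. Genes called over all tested numbered 2538, from 2162 to 2572 with a library left out, 5887 with no limit on the fold, and 2138 (edgeR), 2131 (DESeq2) and 2156 (TMM) on 5 libraries. Family genes called higher numbered 2, from 1 to 3 with a library left out, 1 with a fold over 1.5 and 7 with no limit on the fold. The fold of 1.5 also ended the calls of *Gbp9* (1.42), *Gm12250* (1.44) and *Ifngr2* (0.695). The count of called genes in the 9 interferon lists (39 of 90 tested) stayed within 35 and 56. Changes of sign under scaling to the same sum were *Gbp2* (0.06), *Gbp3* (0.01), *Tgtp2* (0.02), *Irgq* (0.06), *Irf1* (0.02), *Pias1* (0.04) and *Ifnar2* (0.03), all from values near 0, a scaling that moved the median of all genes by 0.062. With a library left out, values ran from -0.04 to 0.06 for *Gbp2*, -0.08 to 0.32 for *Iigp1*, -0.11 to 0.05 for *Tgtp2*, -0.04 to 0.07 for *Irgq*, -0.06 to 0.01 for *Pias1* and -0.09 to 0.00 for *Ifnar2*, with changes of sign among them. The cause was not tested. Family peaks numbered 5, of which 1 differed by over 1 and 0 lay within 1 kb of a start. Same-numbered libraries are not known to be paired. Deviations of same-numbered libraries correlated at 0.305, -0.2 and 0.0897, and those of other pairs at -0.324 to 0.294. With 3 libraries in a group, these values cannot show whether the numbers pair. With the replicate block 2474 genes and 2 family genes were called. The tests planned with TMM, edgeR and DESeq2 on all 6 libraries were not run, since whole reads are not claimed for WT library 1. UTX TCD library 1 was the shallowest, which limits genes at low counts such as *Ifng*, *Gbp2b* and *Cybb*. ATAC-seq gave no values per library.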
